A study of Jatropha curcas with 31 samples.

Results

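Seeds of *Jatropha curcas*, an oilseed shrub of the Euphorbiaceae, were compared between maturation stage III, with a green epicarp and a black endocarp (titled green-black), and stage IV, with a yellow epicarp (titled yellow). The members of the comparison are the 6 arrays with these titles among the 31 arrays of the series, 3 for each stage. Slides 1, 2 and 3 each held 1 array of both stages, and the replicates are numbered here by slide. Both groups were total RNA of seeds from 1 selected plant in Ethiopia, harvested together without any treatment, and the labels give no toxicity class for them. The methods name 3 biological replicates per stage, and p-values therefore measure the spread between samples of this single plant. Stages I and II (green epicarp), V (brown) and VI (dry) of the same plant, 3 arrays each on the same slides, brought the fit to 18 arrays and served to estimate the spread.

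In a maturing oilseed, plastids turn the carbon of imported sucrose into fatty acids, the endoplasmic reticulum joins these to triacylglycerol, and oil bodies coated with oleosin store it. Storage proteins such as 11S globulin and vicilin fill protein bodies, and late embryogenesis abundant (LEA) proteins accumulate as the seed becomes tolerant to drying, a phase in which abscisic acid is the best known hormone. Seed coats harden and darken through lignin and flavonoid products of the phenylpropanoid pathway. In RNA of whole seeds, fewer cells of a type and less RNA per cell cannot be told apart.

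The arrays carried 57842 probes of 60 bases on 19838 contigs (transcripts assembled from seed cDNA), and each contig was represented by its brightest probe. Levels are quantile-normalized log2 intensities, and a difference is stage IV minus stage III on this scale, so that 1 is a 2-fold change. Probe spots well above background made up 47.9 to 60.3% on the stage III arrays and 64.7 to 68.4% on the stage IV arrays, and the median intensity was 26.7 to 30.6 and 51.6 to 59.6, respectively. Stage III was thus the dimmer stage on every slide before normalization, and its part in the differences was not tested. Arrays correlated with r of 0.940 to 0.958 within stage III, 0.966 to 0.975 within stage IV and 0.911 to 0.952 between the stages (across probes). The number of arrays limits the precision of every difference.

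With the p-values of limma adjusted by Benjamini-Hochberg over all probes and a threshold of 0.05, 9139 probes (15.8%) were higher and 7699 (13.3%) lower in yellow seeds, 29.1% of all probes. By contig, 4362 (22.0%) rose and 3690 (18.6%) fell, 40.6% of 19838. No probe (0) passed the threshold of 1e-08 that the methods use, where 23026 had an unadjusted p under 0.05 and the lowest adjusted p was 3.19e-07. The median difference over all contigs was 0.04, and its quartiles were -0.56 and 0.61. Falls reached further than rises, with 121 contigs lower and 42 higher by more than 3, and 42 lower and 9 higher by more than 4. Of the 8052 contigs called, 7965 differed in the same direction on all 3 slides, which a call itself makes likely. The arrays of both stages did not overlap for 9820 contigs (49.5%).

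The counts depended on how the spread was estimated. The 6 arrays fitted alone, with 2 residual degrees of freedom, gave 0 calls (16266 probes at an unadjusted p under 0.05), and all 21 seed arrays (with 3 more of stages II, V and VI on another slide) without the slide term gave 8307. The same 21 arrays with the slide term gave 16521. With scaling to the 75th percentile, which moved the median over all probes from -0.02 to -0.30, the split of probes turned from 54.3% higher to 37.1% higher, while by contig it went from 54.2% to 47.9%. Of 492 contigs well above background on all 3 arrays of stage IV and on none of stage III, 279 were called higher, and of 17 contigs with the opposite pattern 17 were called lower. Such probes have only a bound in the dim stage. Their fold is the mean of the brighter stage over the floor of the array or the probe's own level, whichever was higher. The floor was the lowest level of any probe well above background on that array, and other probes not well above background lay higher. The words "at least" mark folds limited by the floor on some array, and they give no strict minimum.

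The deepest fall of all contigs belonged to contig11519, which has no annotation in the tables read here. Its levels were 12.61, 14.75 and 12.38 on the stage III arrays and 1.85, 3.08 and 2.86 on the stage IV arrays, where it was not well above background. It was thus 1606-fold lower in yellow seeds as measured (difference -10.65 ± 0.72 SE, adjusted p = 5.77e-06), on 1 of its 2 probes. Its stage IV levels lay above the floor, so this fold is an estimate and no minimum. The fall of contig10846 was of the same order, from 12.30, 13.78 and 12.12 to 1.95, 2.05 and 4.54 (difference -9.88, adjusted p = 5.36e-06), and all 4 of its probes fell. It was well above background on 1 of the 3 stage IV arrays. Without stage IV replicate 3 the difference was -10.70. Without stage III replicate 2 that of contig10846 was -9.29 and that of contig11519 was -9.97. The text of contig10846, keratin-associated protein 6-2-like, comes from a table that the study selected on these arrays. No array of one stage reached the levels of the other for either contig, as their choice as the deepest falls made likely.

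Among the annotated contigs that fell most, contig00487 encodes a non-specific lipid transfer protein, a small secreted protein that binds lipids. Its levels of 7.70, 9.14 and 7.48 dropped to 1.88, 2.46 and 2.47, at or near the floor (at least 54.3-fold lower, adjusted p = 8.22e-06). Of the regulators, contig03243 (a MADS-box transcription factor) went from 6.54, 6.36 and 7.04 to 1.93, 1.91 and 1.91 (at least 22.1-fold lower, adjusted p = 6.10e-07), and contig00235, also MADS-box and well above background on 1 stage IV array, fell by 4.03. The texts of both are near-identical, and whether their probes read the same transcript was not tested. Contig00627, whose RefSeq symbol is LBD40 (a LOB domain transcription factor), fell from 14.44, 13.27 and 14.58 to 8.72, 8.90 and 11.77 (19.7-fold, adjusted p = 2.52e-04). Contig02834 carries the text flowering locus T, a family of phosphatidylethanolamine-binding signal proteins, and fell 21.2-fold (9.34, 10.94 and 9.53 against 5.65, 5.35 and 5.59). A thiosulfate sulfurtransferase (contig11478, 20.0-fold), a cysteine proteinase (contig01666, 17.7-fold) and a membrane protein (contig01071, 17.1-fold) also fell. The texts of contig03243, contig02834 and contig01666 are from the selected tables. These contigs were picked among the largest falls. In all of them the highest stage IV array stayed below the lowest stage III array, as the choice made likely. Over all contigs, the arrays of both stages did not overlap in 49.5%.

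The rises were led by contig04658, again without annotation, at 8.62, 8.89 and 8.55 in stage III and 13.83, 13.67 and 13.76 in stage IV (33.7-fold, adjusted p = 1.05e-05). The enzyme table lists contig04280 as an alkane 1-monooxygenase or unspecific monooxygenase, classes that hold many cytochrome P450 enzymes. It was not well above background at stage III (4.70, 5.39 and 4.26) and reached 9.93, 9.64 and 9.68 at stage IV, 31.3-fold higher as measured (adjusted p = 1.40e-05). Its stage III levels lay above the floor, so this fold is an estimate and no minimum. Contig00658, with the text cytochrome P450, rose 16.1-fold (8.81, 9.17 and 8.88 against 12.90, 13.08 and 12.92, adjusted p = 0.00641), and 6 of its 7 probes rose. Its replicates lay close together at both stages, while the SE, which is fitted over all 6 stages, was 0.93.

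A fructose-bisphosphate aldolase of glycolysis (contig07145) rose 12.4-fold (well above background on 2 of 3 stage III arrays), and a peroxidase (contig09344) rose 10.9-fold from 6.47, 6.26 and 6.32 to 9.88, 9.83 and 9.68 (adjusted p = 4.52e-06). Another antisense probe of contig09344 was not called (7.23 and 7.10, adjusted p = 0.666), while a dimmer sense probe rose (3.15 to 5.67, adjusted p = 0.00301). The mean of all its probes gave a difference of 1.37. Contig18848 and contig18849 share the text transparent testa 12-like, in Arabidopsis a transporter that loads flavonoids into the vacuole, again from the selected tables. They rose 7.39-fold and 9.26-fold on their antisense probes, while a sense probe of contig18849 fell from 9.89 to 7.54 (adjusted p = 0.00147), so the direction for this contig depended on the strand read. Whether the probes of both contigs read the same transcript was not tested. A glutamine amidotransferase-like contig (contig00880) rose 7.69-fold on all 5 of its probes (7.96, 8.06 and 7.91 against 11.09, 11.03 and 10.64). Contig14250, with the RefSeq symbol ABCC8 (an ABC transporter), rose 7.98-fold, from 4.18, 4.35 and 4.39, with 1 of these arrays well above background, to 7.29, 7.33 and 7.28. Replicates lay close together in most of these rises. None overlapped between stages, as the choice of the largest rises made likely, against 49.5% of all contigs without overlap.

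**Figure D1:**
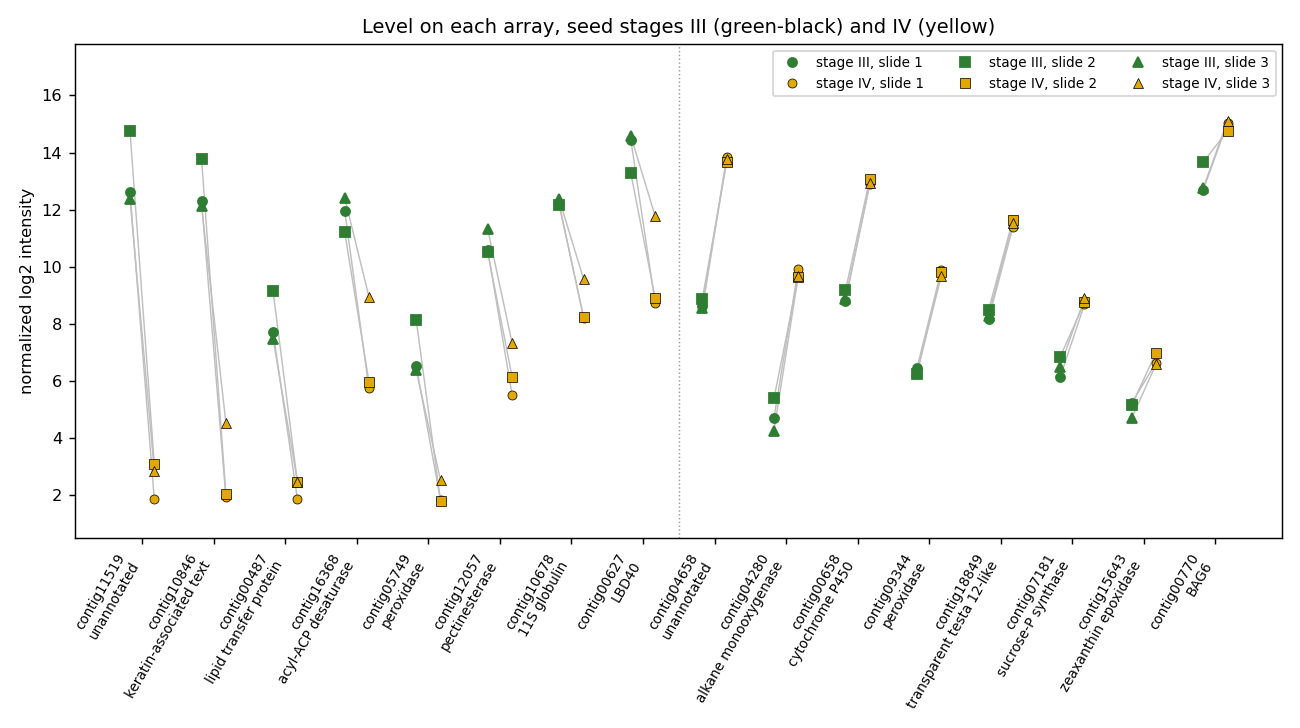
Normalized log2 intensity (y axis) of 16 contigs (x axis) on each of the 6 arrays, with green symbols for stage III, yellow symbols for stage IV, 1 symbol shape per slide and grey lines joining the arrays of a slide. On all 3 slides, as the naming rule requires, the 8 contigs on the left fell and the 8 on the right rose. Among the falling ones the stage IV array of slide 3 often lies highest, as for contig16368 at 8.94 against 5.75 and 5.97.

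The 3 stage IV arrays differed in their levels of the contigs that fell most. Of the 121 contigs that fell by more than 3, the stage IV array of slide 3 was nearest to stage III in 92 (76.0%), that of slide 2 in 22 and that of slide 1 in 7. The lowest level well above background was 2.70 on the stage IV array of slide 3, against 1.73 and 1.80 on slides 1 and 2. The part of this floor in the counts was not tested. The unannotated contig14040 was the clearest case, at 13.43, 13.51 and 13.58 in stage III and 4.22, 4.02 and 10.70 in stage IV. It was well above background on 2 of these 3 arrays, and its difference was -7.19 with all arrays and -9.27 without stage IV replicate 3. LBD40 went from -4.30 to -5.18 and an acyl-ACP desaturase (contig16368) from -4.98 to -6.05 when this array was left out. Contig11478 (-4.32 to -4.99), contig01071 (-4.10 to -4.73) and pyruvate decarboxylase contig04135 (-3.34 to -4.16) also moved by more than 1.5-fold. Other arrays moved contig14040 to -6.16 (without stage IV replicate 1) and -6.14 (replicate 2) and contig00235 to -3.40 (without stage IV replicate 1). Among the 42 contigs that rose by more than 3, the same array was nearest to stage III in 21 and that of slide 1 in 15. Stage III arrays took more even shares, with 31, 67 and 23 of the 121 falls on slides 1, 2 and 3.

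Counts of the gene lists are to be read against the 22.0% of all contigs that rose and the 18.6% that fell. These shares depend on level: 3.47% rose and 5.04% fell below a mean level of 3, against 27.2% and 23.4% from 7 to 9. Some lists are brighter than the array, as glycolysis with 111 of 127 contigs well above background on all stage III arrays, against 13922 of 19838. A share above that of all contigs may thus reflect level, which was not tested. In 28 of the 32 lists the 21-array fit without slide moved a count of rises or falls by more than 1.5 times, as did the mean of all probes in 21. Of the 8 contigs of storage, oil body and LEA proteins, 2 were lower in yellow seeds, a share near that over all contigs, and 0 higher. The 11S globulin contig10678, a major storage protein, held 12.18, 12.15 and 12.36 in stage III and 8.22, 8.23 and 9.57 in stage IV, an 11.8-fold fall (adjusted p = 1.69e-04). A vicilin (contig00303) had 12.16, 12.21 and 12.28 against 10.74, 10.79 and 11.16, a difference of -1.32 ± 0.43 (adjusted p = 0.0380) whose call was lost without any one of the 6 arrays (adjusted p of 0.0713 to 0.117). Its probes at positions 0, 750 and 1250 were also called lower (adjusted p of 0.0168, 0.00455 and 0.0210), and those at 500 and 1000 were not. The mean of all its probes gave -1.26 (adjusted p = 0.00348). The other 6 contigs of the list did not pass the test on their brightest probe. Dimmer sense probes were called higher for vicilin-like contig13681 (12.56 to 13.17, adjusted p = 0.0372) and lower for oleosin contig12313 (5.28 to 2.88, adjusted p = 0.00259). Oleosin contig12313 was at 17.35 ± 0.10 (SD, n = 3) and 17.43 ± 0.27, oleosin contig11740 at 14.45 and 14.39, aquaporin TIP3-2 (contig19897) at 17.24 and 17.02, and vicilin-like contig13681 at 14.41 and 14.79. Of the LEA contigs, contig00783 had 18.57 and 18.41, and contig02026 had 10.56, 9.88 and 10.26 against 11.08, 11.47 and 11.12, a difference of 0.99 that missed the threshold (adjusted p = 0.197) although the arrays did not overlap. A sense probe of contig02026 was called the other way, with means of 8.40 and 6.86 (adjusted p = 0.0289). The median of the list was -0.11, with 1 contig lower when any single array was left out, and 6 of its 8 names come from the selected tables.

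As a check of the tissue label, the markers gave a mixed picture. On the 10 leaf arrays, in a normalization of all 31 arrays, contig13681 and contig02026 were not well above background on any array, whereas oleosin contig11740 and LEA contig00783 were on all 10, at means of 8.95 and 15.78 in toxic leaves. The other 4 were well above background on 1 to 6 leaf arrays. Of the leaf markers, photosystem II 10 kDa protein (contig00556, read on 3 probes) stood at 18.10 in toxic and 18.06 in non-toxic leaves, against 11.20 and 10.45 at stages III and IV. The Rubisco contig00674 stood at 15.50 and 15.35 in leaves, against 13.80 and 11.76. In the seed normalization contig00556 fell by 0.77 (10.73, 11.32 and 10.97 against 10.32, 10.19 and 10.21, adjusted p = 0.00418), and the Rubisco large subunit (contig00674, the carbon-fixing enzyme) fell by 2.06 from 13.81, 13.55 and 13.51 to 11.69, 11.82 and 11.19 (adjusted p = 2.22e-04). Both falls were read on antisense probes, while the 3 sense probes of contig00674 differed by 0.01 to 0.33 without a call. The leaf list thus had 0 of 2 higher and 2 lower, with a median of -1.41. Both calls were lost with the mean of all probes and in the 21-array fit without slide.

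Of 37 contigs of fatty acid synthesis, 16 fell and 4 rose, 43.2% and 10.8%, with a median of -0.34. The 21-array fit without slide called 9 lower and 3 higher. The class with most contigs, 3-oxoacyl-ACP reductase, had 6 of 17 lower and 2 higher and a median of 0.05. All 5 acyl-ACP desaturase contigs, which place the first double bond of oleate, lay between -4.98 and -0.84, and 4 fell. Contig16368 dropped from 11.97, 11.22 and 12.42 to 5.75, 5.97 and 8.94 (31.6-fold, adjusted p = 2.52e-04) and contig03293 from 9.42, 10.67 and 9.48 to 5.07, 5.31 and 6.10 (20.6-fold, adjusted p = 7.41e-06). Of the acyl-ACP thioesterases that release fatty acids from the plastid, 2 of 3 fell, with the lowest at -3.32. The malonyl transferase fell by 1.15, and 2 of 6 acetyl-CoA carboxylase contigs fell. The only contig listed as beta-ketoacyl-ACP synthase III (contig05068) moved the other way, from 10.26, 10.51 and 10.40 to 12.11, 12.21 and 12.07 (3.33-fold higher, adjusted p = 1.05e-05). Of 5 contigs listed as beta-ketoacyl-ACP synthase I, 2 rose and 1 fell.

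Triacylglycerol assembly was more even, with 5 of 28 contigs higher, 7 lower and a median of -0.06 (1 to 6 higher and 6 to 7 lower with 1 array left out). Within it, 3 of 6 diacylglycerol acyltransferase contigs, a last step to oil, fell and none (0) rose, with differences from -1.30 to -0.19. Contig00653 of this class fell 2.47-fold, from 11.86, 11.04 and 11.73 to 10.24, 10.22 and 10.26 (adjusted p = 0.00551). Of 2 phospholipid:diacylglycerol acyltransferase contigs, another last step, 1 rose and 0 fell (0.33 and 0.70). The call of the riser (contig02496) was lost when any of 5 arrays was left out. Lipases, which cleave oil, had 9 of 29 higher and 3 lower (5 to 9 and 3 to 5 with 1 array left out) and a median of 0.22. The triacylglycerol lipase contig05546 rose 3.67-fold, from 5.83, 4.47 and 5.65 (2 of 3 well above background) to 7.09, 7.38 and 7.10 (adjusted p = 4.12e-04). In beta-oxidation and the glyoxylate cycle, by which germinating seeds turn oil into sugar, 8 of 33 rose and 6 fell (4 to 9 and 5 to 7 with 1 array left out), or 24.2% and 18.2%, near the shares over all contigs. Isocitrate lyase contig00482, a key glyoxylate enzyme, fell 9.03-fold, from 11.62, 12.32 and 11.73 to 8.67, 8.70 and 8.78 (adjusted p = 1.02e-05), and an enoyl-CoA hydratase (contig01429) fell 5.29-fold, both on 5 of 7 probes. The other isocitrate lyase, contig14634, had means of 16.15 and 15.66 (adjusted p = 0.70), and none (0) of the 3 malate synthase contigs, the partner enzyme of the cycle, passed the test (0.19 to 0.85).

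Of the 2 phenylalanine ammonia-lyase contigs, the first step of the phenylpropanoid pathway, 1 fell and the other differed by -0.05 without a call. Contig05269 fell by 3.33 (8.70, 9.44 and 8.69 against 5.24, 5.78 and 5.83, adjusted p = 1.85e-04). Cinnamate 4-hydroxylase (contig00044, C4H), the next, fell 11.1-fold (10.04 ± 0.23 SD against 6.57 ± 0.55, n = 3 each, with the arrays apart, adjusted p = 6.54e-05), and 5 of 7 4-coumarate-CoA ligase contigs fell, with a median of -2.51 and 1 higher. Further down, 4 of 14 caffeoyl-CoA O-methyltransferase contigs fell and 0 rose, while 7 of 13 cinnamoyl-CoA reductase contigs, which lead to lignin monomers, rose and 1 fell. Contig00696 of that class rose 3.54-fold, from 8.67, 7.85 and 8.38 to 9.95, 10.32 and 10.09 (adjusted p = 7.65e-04). The whole list had 10 of 42 higher and 13 lower (6 to 9 and 13 to 15 with 1 array left out) with a median of -0.41.

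Peroxidases, some of which polymerize lignin, had 13 of 30 contigs lower and 3 higher, the lowest median of the enzyme lists at -0.96. The count of rises was 2 to 5 and that of falls 9 to 14 with 1 array left out, and the median on slide 2 alone was -0.06 against -0.83 and -0.92 on slides 1 and 3. Contig05749 fell from 6.54, 8.14 and 6.38 to 1.82, 1.81 and 2.53, not well above background (at least 30.1-fold lower, adjusted p = 7.18e-05), and contig11593 fell 12.1-fold. Another antisense probe of contig11593 fell by 3.69, a further one was not called (8.77 and 8.52, adjusted p = 0.667), and the mean of all its probes gave -1.74. With scaling to the 75th percentile 15 contigs of the list fell and 1 rose.

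Flavonoid synthesis, which makes tannins and pigments of the seed coat, had 36 of 91 contigs lower and 15 higher, a median of -0.44 and slide medians of -0.52, -0.61 and -0.63. Chalcone synthase, the entry enzyme, had 2 of 4 contigs lower and 0 higher. Of 7 flavanone 3-dioxygenase contigs 4 fell, led by contig00198 (symbol F3H) with 7.59, 8.83 and 7.11 against 3.83, 5.16 and 4.55 (10.1-fold lower, adjusted p = 6.83e-05), and all 3 flavonoid 3'-monooxygenase contigs fell, by 1.38 to 2.87. The anthocyanidin reductase, a step to condensed tannins, fell by 1.42, and 3 of 7 leucocyanidin oxygenases fell. Classes with many contigs were mixed, with 9 of 25 flavonol synthase contigs lower and 4 higher, and 9 of 30 dihydrokaempferol 4-reductase contigs lower and 7 higher. Flavonoid 3',5'-hydroxylase contigs split evenly, 3 higher and 3 lower of 10.

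**Figure D2:**
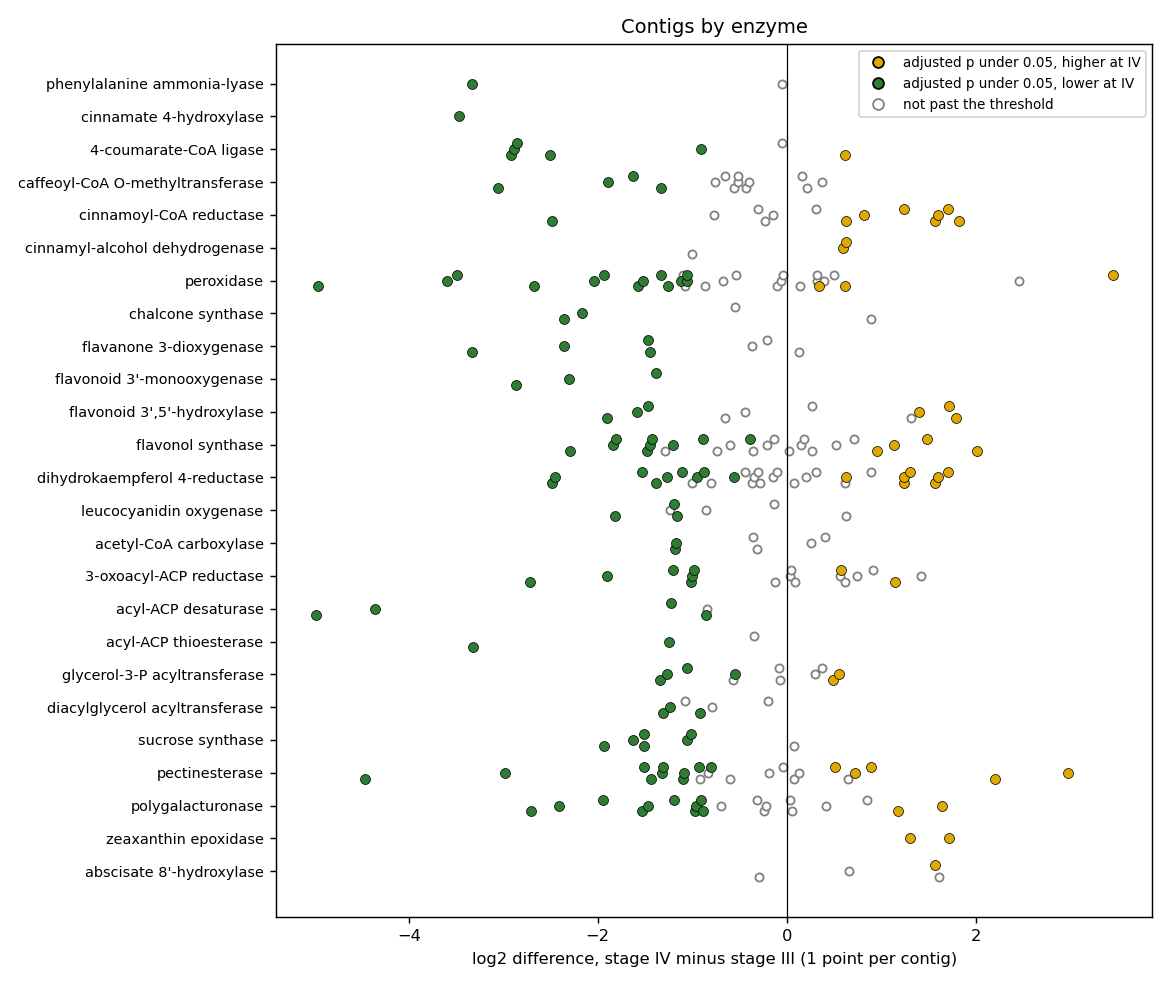
Difference between stages IV and III on the log2 scale (x axis), 1 point per contig, for 25 enzyme classes (rows, with points spread vertically to be visible). Filled points passed an adjusted p under 0.05 (yellow higher, green lower at stage IV) and open points did not, and the acyl-ACP desaturases, 4-coumarate-CoA ligases and flavonoid 3'-monooxygenases lie mostly or wholly on the lower side, while 7 of 13 cinnamoyl-CoA reductases lie on the upper.

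In pectin modification, 21 of 55 contigs were lower and 10 higher, with a median of -0.32 and, in the 21-array fit without slide, 8 lower and 5 higher. Pectinesterases, which remove methyl groups from pectin, had 10 of 23 lower and 5 higher, and spanned -4.46 to 2.97. Contig12057 dropped 22.0-fold, from 10.80 ± 0.44 (SD, n = 3) to 5.52, 6.15 and 7.34 (adjusted p = 7.02e-06), whereas contig09564, not well above background at stage III (4.43, 1.84 and 3.65), reached 5.95, 6.73 and 6.16 (at least 6.30-fold higher, adjusted p = 0.00124). Its measured difference of 2.97 was 3.59 without stage III replicate 1 and 2.14 without replicate 2. Polygalacturonases, which cut the pectin chain, had 10 of 20 lower and 2 higher. Contig20094 was 1 of these 2, with 6.94, 6.25 and 6.69 against 8.21, 8.40 and 8.19. Cellulose and callose synthesis was even, at 8 of 38 higher and 9 lower (4 to 8 and 7 to 9 with 1 array left out). Within it cellulose synthase contig10601 fell 4.03-fold (9.69, 9.56 and 9.91 against 7.28, 7.59 and 8.26, adjusted p = 7.75e-04) and callose synthase contig04167 rose 2.22-fold.

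Of 7 sucrose synthase contigs, which cleave imported sucrose, 6 fell and 0 rose, with a median of -1.51. Contig03491 fell from 11.44, 11.97 and 11.27 to 9.48, 9.70 and 9.69 on all 4 of its probes (3.83-fold, adjusted p = 1.43e-04), and contig13601 fell 3.09-fold on both of its probes. Sucrose-phosphate synthase contig07181, which makes sucrose, rose 4.85-fold from 6.14, 6.84 and 6.51 to 8.68, 8.75 and 8.89 (adjusted p = 2.53e-05). The list as a whole had 8 of 16 lower and 2 higher (8 and 1 to 3 with 1 array left out) and a median of -0.61, with slide medians of -0.65, -0.60 and -0.74.

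Enzymes of raffinose family oligosaccharides, protective sugars of dry seeds, had 3 of 21 higher and 2 lower (2 to 3 and 1 to 2 with 1 array left out), and none (0) of 6 galactinol synthase contigs passed the test. Alpha-galactosidase contig06441, which breaks these sugars down, rose 1.95-fold (10.47, 10.84 and 10.37 against 11.40, 11.69 and 11.48). Starch synthesis had 4 of 11 higher and 3 lower (2 to 3 each with 1 array left out), and starch breakdown 4 of 21 higher and 5 lower (3 to 4 and 2 to 5). Branching enzyme contig03391 rose 2.38-fold (9.13, 8.93 and 8.94 against 10.27, 10.38 and 10.10, adjusted p = 3.10e-05), while another of the 3 branching enzyme contigs, contig00052, fell by 1.44 (adjusted p = 0.00403). None of the other probes of contig00052 was called. Its call was lost with the mean of all probes (-0.24, adjusted p = 0.728) and in the 21-array fit without slide (adjusted p = 0.411). Of 13 trehalose contigs, 2 rose and 4 fell, with a median of 0.23. The synthase contig17326 rose 3.20-fold (11.70, 11.93 and 11.87 against 13.42, 13.68 and 13.44, adjusted p = 7.02e-06) and its relative contig05296 fell 2.07-fold (14.56, 14.34 and 14.74 against 13.50, 13.42 and 13.55).

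Among hormone lists, abscisic acid and carotenoids had the highest median of all lists, 0.77, with 5 of 14 contigs (35.7%) higher and 0 lower, and slide medians of 0.70, 1.07 and 0.52. Only 7 of the 14 were well above background on all stage III arrays and 10 on all stage IV arrays. The part of dim levels in this median was not tested. With the mean of all probes 2 were higher and 1 lower. Both zeaxanthin epoxidase contigs, which supply the precursor of abscisic acid, rose, by 1.31 and 1.72. Contig15643, well above background on 1 stage III array, went from 5.23, 5.15 and 4.69 to 6.65, 6.99 and 6.59 (adjusted p = 1.37e-04), and its call was lost with the mean of its 4 probes. Abscisic-aldehyde oxidase, the last step of synthesis, rose by 0.92. The contig listed as xanthoxin dehydrogenase, contig01005, rose by 0.57, and it is also listed as a 3-oxoacyl-ACP reductase and counted in fatty acid synthesis. Further, 1 of 4 abscisic acid 8'-hydroxylases, which break the hormone down, rose. None (0) of the 3 contigs of 9-cis-epoxycarotenoid dioxygenase, the committed step, passed the test (0.37 to 1.36).

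The gibberellin list had the opposite sign, with 5 of 14 lower and 1 higher (2 to 6 and 1 with 1 array left out) and a median of -0.68. Of 10 gibberellin 3-beta-dioxygenase contigs, which make the active hormone, 3 fell and 1 rose. Contig18542 fell 2.19-fold (8.02, 7.81 and 7.59 against 6.76, 6.61 and 6.65) and contig12311 rose 2.36-fold (8.45, 8.80 and 8.90 against 9.94, 10.24 and 9.68). Ethylene had 2 of 12 higher and 3 lower. The aminocyclopropanecarboxylate oxidase contig00318, which makes ethylene, fell 3.85-fold from 14.15, 14.46 and 14.31 to 11.95, 12.17 and 12.98, while contig02109 (symbol ACO1) rose 1.80-fold, from 12.38, 12.13 and 12.09 to 13.03, 13.05 and 13.06. Of 12 contigs in the zeatin pathway 3 rose and 3 fell (3 and 0 to 2 with 1 array left out), and the cytokinin dehydrogenases contig03624 (symbol CKX5) and contig10855, which degrade cytokinin, rose 3.08-fold and 3.14-fold. Chlorophyll synthesis and breakdown was mixed, with 5 of 19 higher and 4 lower (3 to 5 each with 1 array left out), as was the terpenoid backbone with 13 of 38 higher and 6 lower (12 to 14 and 3 to 6).

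Glycolysis had 42 of 127 contigs lower and 28 higher and a median of -0.13, and its deepest falls were a glyceraldehyde-3-phosphate dehydrogenase (contig02434, -3.59 on the log2 scale, with 12.49, 12.62 and 12.62 against 8.50, 8.56 and 9.91) and a pyruvate decarboxylase of fermentation (contig04135, 10.1-fold, with 14.26, 13.75 and 14.04 against 9.92, 9.90 and 12.22). The citrate cycle had 19 of 53 higher and 12 lower (35.8% and 22.6%), and 14 to 17 and 8 to 13 with 1 array left out. Both shares lay above those over all contigs. However, 48 of the 53 were well above background on all stage III arrays, and dim contigs were called less often. Oxoglutarate dehydrogenase contig03405 rose 4.30-fold (9.51, 9.81 and 9.61 against 11.78, 11.76 and 11.70, adjusted p = 5.29e-06) and malate dehydrogenase contig11337, well above background on 1 stage III array, rose 4.79-fold. Carbon fixation had 27 of 86 higher and 16 lower, and oxidative phosphorylation 15 of 88 higher and 17 lower. Glutathione metabolism had 15 of 67 higher and 12 lower. Contig11535 and contig21326, both glutathione transferase or lactoylglutathione lyase, fell 9.99-fold and 9.25-fold with nearly equal levels on every array, and whether their probes read the same transcript was not tested.

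Aminoacyl-tRNA synthesis had 18 of 54 contigs higher and 4 lower, with a median of 0.36 and slide medians of 0.27, 0.44 and 0.35. Isoleucine-tRNA ligase contig06071 rose 2.90-fold on both of its probes (6.22, 6.39 and 6.19 against 7.68, 7.97 and 7.76). Ribosomal proteins had 10 of 31 higher and 7 lower and a median of 0.34. The cytosolic 60S protein L3 (contig01049) rose 3.23-fold (12.23, 11.85 and 11.79 against 13.63, 13.72 and 13.59), and the plastid 50S protein L15 (contig00116, symbol RPL15) fell 1.93-fold (9.19, 8.54 and 9.10 against 7.88, 7.96 and 8.16). Ubiquitin and proteasome had 5 of 22 higher (22.7%, near the share over all contigs) and 1 lower (4.55%; 3 to 4 and 0 to 1 with 1 array left out), led by the E3 ligase contig00879 (2.01-fold).

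Of 11 heat shock and chaperone contigs, 1 rose and 2 fell (1 to 2 and 2 with 1 array left out). The riser was contig00770 (symbol BAG6, a co-chaperone), from 12.69, 13.66 and 12.76 to 15.04, 14.77 and 15.12 (3.82-fold, adjusted p = 0.00107), on 12 of its 17 probes. A plastid DnaJ chaperone (contig00372) fell 2.78-fold, from 13.41, 12.52 and 13.41 to 11.65, 11.75 and 11.50. Transcription factors in the unselected part of the annotation had 17 of 44 lower and 11 higher (11 to 15 and 6 to 9 with 1 array left out), with a median of -0.31. Besides LBD40 and the MADS-box contig00235, the heat stress factor A-1-like contig00751, a trigger of the heat response, rose 3.81-fold (7.77, 7.73 and 7.98 against 9.55, 9.99 and 9.73, adjusted p = 2.06e-05). The basic helix-loop-helix factor bHLH30-like (contig00462) rose 5.33-fold as measured, from levels not well above background, so this fold is an estimate and no minimum. Its difference of 2.41 was 1.73 without stage III replicate 1.

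**Figure D3:**
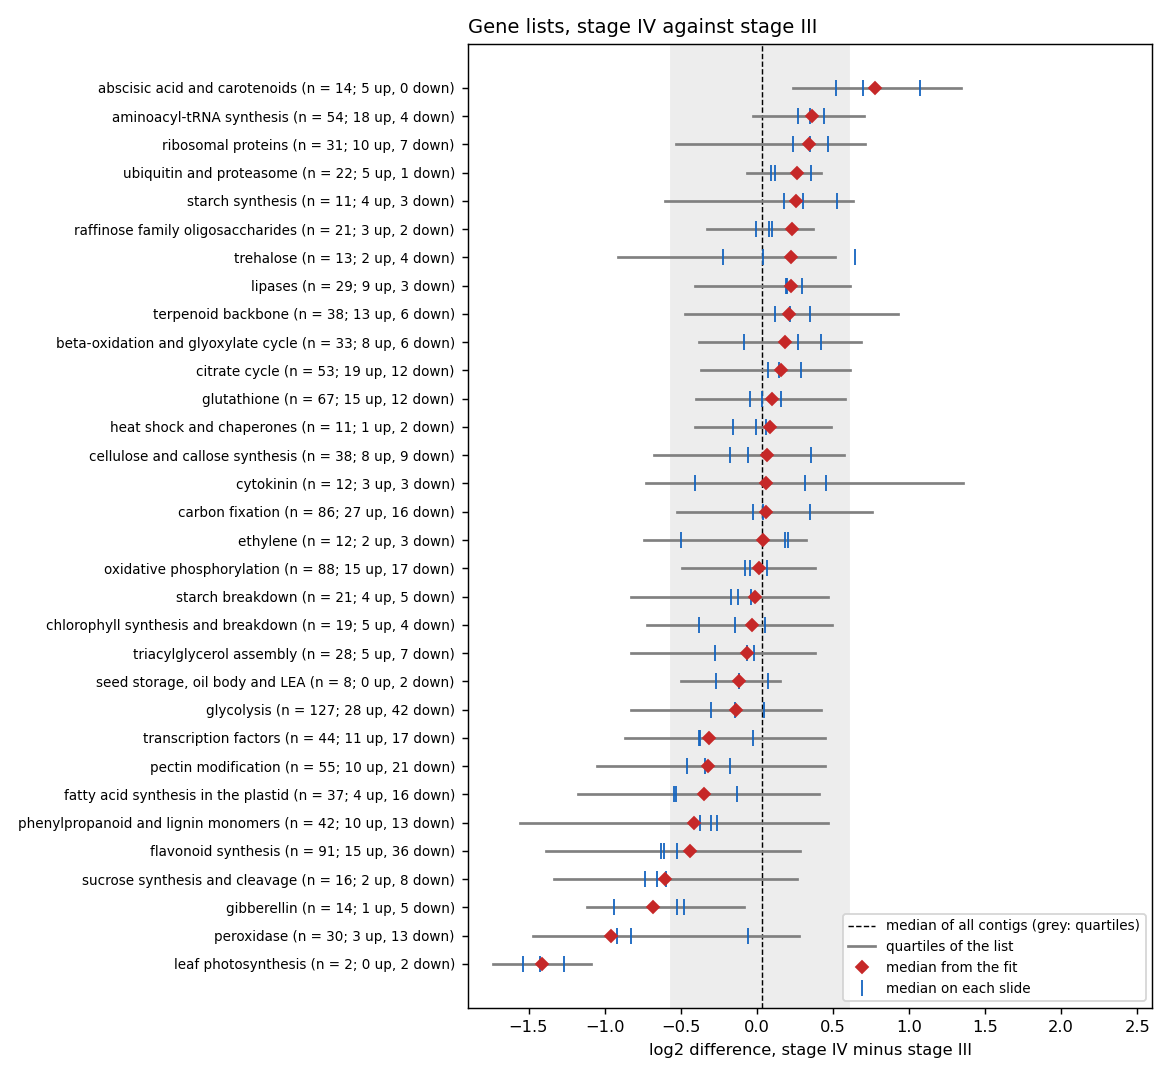
Median difference between stages IV and III on the log2 scale (x axis) for the 32 gene lists (rows, with the number of contigs and of calls in each direction), with red diamonds for the fit, blue ticks for the 3 slides, grey bars for the quartiles of the list and a dashed line and shading for the median and quartiles of all contigs. Abscisic acid and carotenoids lie highest at 0.77, and the peroxidases lie lowest of the enzyme lists at -0.96.

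The steps before and after share arrays with this comparison, so their values are given side by side only. By contig, 16.6% rose and 20.1% fell between stages II and III (36.7% in all), and 8.06% rose and 9.29% fell between stages IV and V (17.3%). Sucrose synthase contig03491 had fallen by 2.68 from stage II to III before its fall of 1.94, and phenylalanine ammonia-lyase contig05269 by 3.72 before its fall of 3.33. The oxidase contig00318 had risen by 5.56 from stage II to III and fell by 1.94 and then by 2.48. C4H fell by 2.80 and by 3.47 and rose by 3.68 from stage IV to V. Acyl-ACP desaturase contig16368 differed by 0.04 from stage II to III (adjusted p = 0.98), fell by 4.98 and fell by another 3.58. For 11S globulin the 3 steps were 1.41, -3.56 and -0.26, and for LEA contig02026 they were 5.04, 0.99 and -0.26.

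Among the rises, peroxidase contig09344 had fallen on its brightest probe by 2.08 from stage II to III, rose by 3.45 and fell by 3.01 (adjusted p = 3.29e-05 for the last). Contig04658 rose by 1.52 and by 5.07 and then fell by 2.54, and the transparent testa 12-like contig18849 rose by 1.71 and by 3.21 and fell by 1.82, so that stage IV held the highest mean of these neighbouring stages for all 3. In contrast, contig04280 differed by -0.43 from stage IV to V (adjusted p = 0.62), and sucrose-phosphate synthase contig07181 by 0.46 (adjusted p = 0.20).

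**Figure D4:**
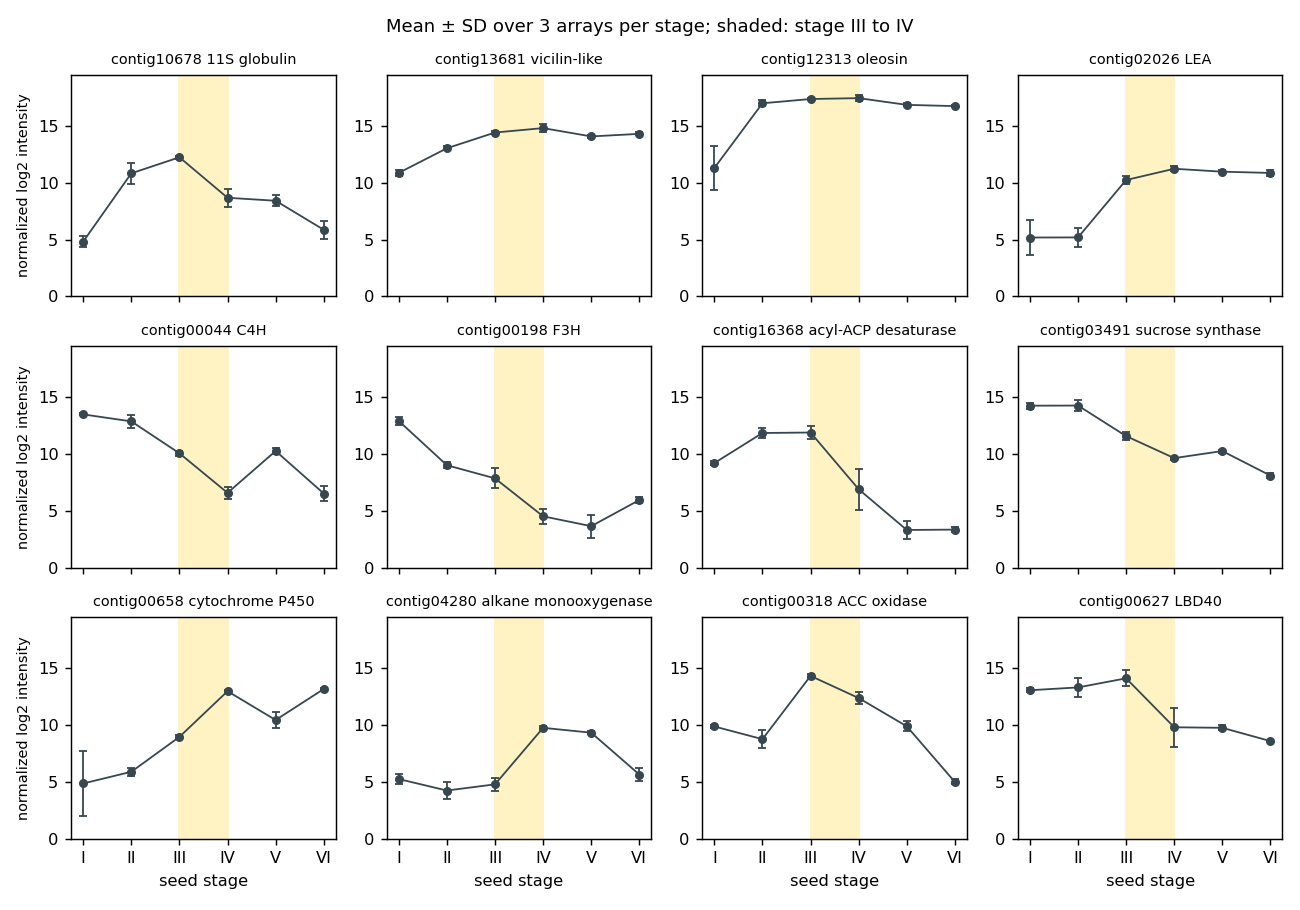
Normalized log2 intensity (y axis, mean ± SD over 3 arrays) of 12 contigs at the 6 seed stages (x axis), with the step from stage III to IV shaded. The 11S globulin, LBD40 and acyl-ACP desaturase contigs fall within the shaded step, C4H has its low point of the first 5 stages at stage IV, and oleosin contig12313 has means of 17.35 and 17.43 on either side.

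Probes of both strands differed in many contigs. Of 14856 contigs with probes in both directions, the brightest sense probe and the brightest antisense probe were both called in 1511. They had the same direction in 1135 of these and opposite directions in 376, and 3212 contigs were called on the sense probe only and 3292 on the antisense probe only. The strand of a contig follows its assembly, and the probe with the higher mean was the antisense one for 7667 contigs. Of the 142 contigs chosen by the naming rule, 136 passed the test, 68 in each direction, and 11 of the 142 had another probe that was called the other way. Of the 136, 122 kept their call without each single array, 109 in the 21-array fit without slide and 107 with the mean of all probes.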

How the data were processed

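Total RNA of *J. curcas* seeds was amplified to Cy3 cRNA for one-colour Agilent 8x60K arrays. The intensity values deposited by the authors are Feature Extraction (version 10.5.1.1 per the submitters' processing notes) signals per spot, spatially detrended and background-subtracted but not normalized between arrays. The authors also deposited log2 values per probe, which per the methods were imputed, averaged over replicate spots and quantile normalized. From each file the processed signal, the spot and background signals and the flags per the file headers (other columns) were read.

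Control spots (1319 of 62976 per array) and non-uniform outlier spots (1 to 416 on the 6 arrays) were left out, replicate spots averaged, values log2-transformed, missing values imputed from the 10 nearest probes over all 31 arrays, and the 18 seed arrays on slides 1 to 3 quantile normalized. No spot was saturated (0) on the 6 arrays. A linear model with stage and slide was fitted in R 4.3.3 with limma 3.58.1 (data.table, version 1.17.8), leaving 10 residual degrees of freedom, and p-values were adjusted by Benjamini-Hochberg over 57842 probes. Tables and figures were made in Python 3.11.15 with pandas 2.3.3 and matplotlib 3.10.9. The methods state no slide term, and slide was included because the comparison is paired by slide. Deviations from the stage mean correlated between the stage III and stage IV arrays of a slide with r of 0.01, -0.18 and 0.21 on slides 1, 2 and 3. Over the 15 pairs of stages on a slide the mean r was 0.10, -0.01 and 0.19, with 9, 3 and 14 pairs over 0.1, so not every pair deviated together. On simulated arrays with this design, 20% of 100 probes changed by 1 and 55% of 100 changed by 2 (log2 scale) were called. Of the unchanged probes, 7 were called. Only those planted probes changed among 57842, whereas 29.1% of probes were called in the data. The adjusted threshold was thus stricter in the simulation, and the 20% and 55% do not give the sensitivity of this comparison.

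The deposited arrays carry no gene names. Enzymes were taken from the enzyme annotation of the study (2474 contigs) and texts from its annotation tables (839 contigs from a part not selected on these arrays, which was held only in part, and 435 from selected tables). RefSeq symbols (XTBG_Jcur_1.0) were reached for 372 of 1959 contigs with an accession, of which 1477 matched. Probe sequences and positions on a genome were not used here.

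The 32 lists, the members and the tests were chosen with earlier results of these data known. Contigs were named by a rule: among those called, of the same sign on all 3 slides and well above background on all arrays of the brighter stage, the 12 largest annotated rises and falls, the 3 largest without annotation, the 2 largest of each list in either direction, and all contigs of the storage and leaf lists. No set test was made. Alternatives were another treatment of slide, of the arrays fitted, of normalization, background, outlier spots, dim probes and probes per contig, other thresholds, the deposited log2 values, and each array left out.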

Additional observations from a re-analysis of the deposited data

How the results depend on the processing

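The deposited log2 values gave 16186 probes, normexp background correction 16960, outlier spots kept 16639, dim probes left out 16533 and scaling to the 75th percentile 22360, against 16838. Without the replicate block for slide 14994 probes, 7325 contigs, 532 list entries and 130 of 136 named contigs were called. With the 6 arrays alone and the replicate block, 0 probes, 0 contigs, 0 list entries and 0 named contigs passed, with 2 residual degrees of freedom and a lowest adjusted p of 0.0688. In the 21-array fit without the replicate block, 8307 probes, 4233 contigs and 336 of the 566 list entries were called, and with the block 16521, 7958 and 555. At an adjusted p under 0.01 the counts were 10068, 5227 and 393, and at 1e-08 they were 0, 0, 0 and 0 named contigs. Leaving out each array in turn gave 12879 to 16214 probes, 6293 to 7368 contigs, 460 to 520 list entries and 125 to 130 named contigs. It moved a count of rises or falls by more than 1.5 times in 18 of the 32 lists, most of them with few calls, and each of the 6 arrays did so in 7 to 10 lists. The median difference over all probes was 0.13 with dim probes left out and -0.30 with percentile scaling. With the mean of all probes per contig, 7 named contigs changed sign, all without a call: contig00248 to 0.14, contig03641 to 0.034, contig03877 to 0.055, contig09670 to -0.31, contig10117 to -0.26, contig10717 to 0.027 and contig13779 to -0.34. The cause of these moves was not tested. With 47.9 to 60.3% of probe spots well above background at stage III, differences of dim probes rest on bounds or imprecise levels.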
